A study of Mus musculus with 3 samples.

Results

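Within the leukocytes of the sciatic nerve, the cells that the authors named Mixed, their cluster 11, were compared with cluster 9 of their class gdT/NK/NKT. Members were taken by the deposited class and cluster number: 291 Mixed cells and 478 cluster 9 cells, of 11640 cells in all. The cells are the CD45+ fraction of nerves from NOD.AIRE GW/+ mice at 15 weeks. NOD is a mouse strain prone to autoimmunity, and AIRE is the gene of the thymic regulator that lets developing T cells meet tissue antigens. Both groups of cells carry the same GW/+ genotype and come from the same 3 libraries, so each was compared with the other within its library and no effect of genotype is measured. Wild-type nerves were not analysed here. Libraries 1 and 2 were read from the 3′ end and library 3 from the 5′ end, and only library 1 carries "pos" in its name, a tag left unexplained by the labels. Since no label ties a library to 1 animal or to several, the p-values reflect variation among 3 libraries that may be technical. The reads of summed cells cannot tell fewer expressing cells from less RNA per cell.

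Interleukin 17 is made by T cells and innate-like lymphocytes that respond to interleukin 23 and interleukin 1. Many of the earliest such cells are gamma-delta T cells, whose receptor pairs a gamma with a delta chain, among them cells that join the V segments Tcrg-V6 and Trdv4. Other innate-like lymphocytes of tissues instead run a type 1 program under T-bet (Tbx21) and Eomes, carry killer lectin-like receptors and release the chemokines Xcl1 and Ccl5. The comparison sets these programs side by side in cells of the same nerves.

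Mixed cells numbered 99, 123 and 69 in libraries 1, 2 and 3, and cluster 9 cells 151, 255 and 72. They made up 3.01 ± 1.98% and 5.21 ± 4.96% of the cells of a library (SD, n = 3). Cells of the Mixed class were shallower, with median UMI counts of 2885, 3649 and 4277 against 3651, 4982 and 4776. Summed UMIs were 295666, 462402 and 295435 for Mixed and 628619, 1364907 and 326792 for cluster 9. Libraries 1 and 2 share 6 cell barcodes, 1 of them among these cells. Levels are given as CPM, UMI counts scaled to library size with TMM factors, and log2 fold changes are Mixed minus cluster 9 with their standard errors.

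Of 4906 genes tested with edgeR, 905 were called (18.4%) at an adjusted p under 0.05. Of these, 483 were higher in Mixed (9.85%) and 422 lower (8.6%). The median log2 fold change over all tested genes was -0.00128. For 948 genes (19.3%) the 3 values of Mixed and the 3 of cluster 9 did not overlap. The authors drew the clusters from these same counts, so a call says that a difference recurred over libraries and is no evidence that the clusters are distinct. A gene near 0 in 1 group passed the filter on low counts only through the other group, so its direction was set by that filter. Counts over lists rich in such genes are descriptions and support nothing.

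**Figure D1:**
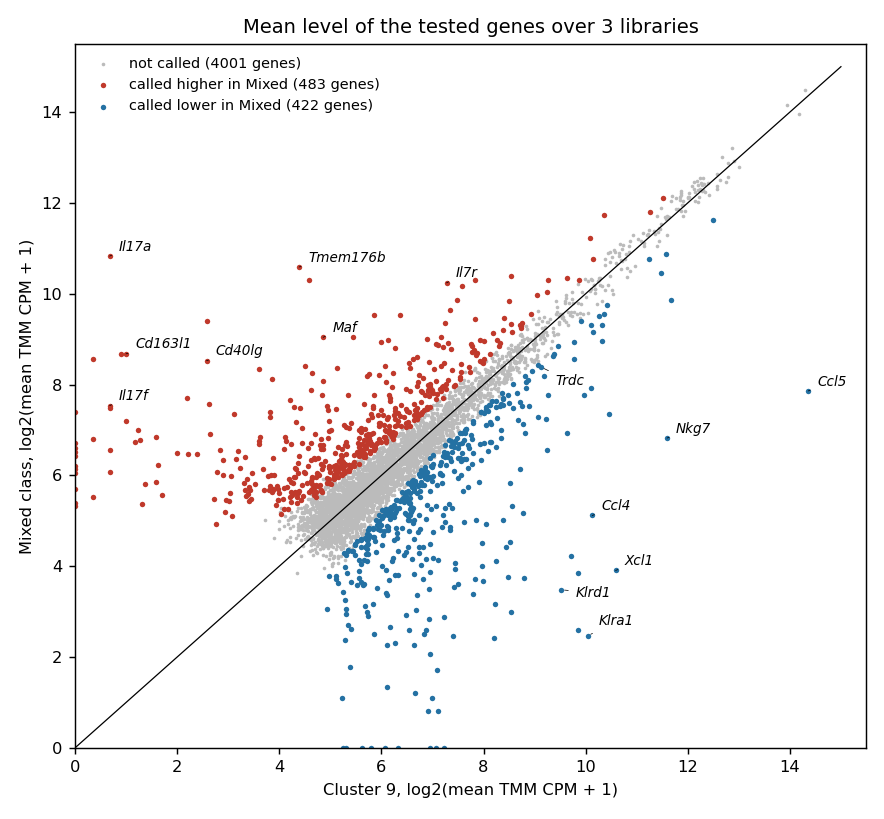
Each point is 1 of 4906 tested genes, placed by its mean level in cluster 9 (x axis) and in Mixed (y axis), both as log2(mean TMM CPM + 1) over 3 libraries. Red points were called higher in Mixed (483 genes), blue points lower (422 genes), and Il17a and Ccl5 lie far from the line of equal levels on opposite sides.

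The marker genes behaved as a contrast of Il17a with Xcl1, with Trdc in both groups. Il17a (chr1:20730905-20734496, plus strand, mm10), which encodes interleukin 17A, stood at 397, 1568 and 3490 CPM in the Mixed cells of libraries 1, 2 and 3, and at 1.79, 0 and 0 CPM in cluster 9. Every Mixed value lay above every cluster 9 value, and the Mixed values themselves spread widely, with library 3 highest. Over the libraries these are 1811 UMIs against 1 UMI, a ratio of 3902 with a 95% exact counting interval from 699.5 to 154200. Without library 1 the cluster 9 count is 0 and the ratio is at least 1221. Without library 2 it is 1835 and without library 3 it is 2030. The gene was called in each of the 15 alternative analyses, but it names the comparison and passed the filter only through Mixed. Those calls are therefore no support. Mixed cells held 98.6% of all Il17a UMIs of the 11640 cells.

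Xcl1 (chr1:164931644-164935527, minus strand), the chemokine that attracts cross-presenting dendritic cells, showed the opposite order. It stood at 15.7, 16.1 and 10.2 CPM in Mixed and at 1860, 2106 and 646 CPM in cluster 9, with no overlap. Its log2 fold change was -6.77 ± 0.29 (edgeR adjusted p = 1.8e-16). Xcl1 also names the comparison and, with 14 UMIs in Mixed, passed the filter only through cluster 9. That call is therefore no support. Xcl1 is not limited to cluster 9: that cluster held 35.1% of its UMIs, the CD8 cluster 4 held another 35.1% and cluster 8, of the class gdT/NK/NKT, held 17.1%. Mixed cells held 0.128%.

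Trdc (chr14:54142851-54148868, plus strand), the constant part of the delta chain, was found in both groups. Its values were 267, 516 and 218 CPM in Mixed and 831, 620 and 218 CPM in cluster 9, so the groups overlapped. The log2 fold change was -0.65 ± 0.23 (edgeR adjusted p = 0.047). This call was lost without library 1, where the change was -0.16 with an adjusted p of 0.81, and it was lost with DESeq2 and in 6 other analyses. In cells without a UMI of Cd4 or Cd40lg the direction turned, to 0.44 with an adjusted p of 0.27. The direction of Trdc thus depended on the cells and libraries used.

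**Figure D2:**
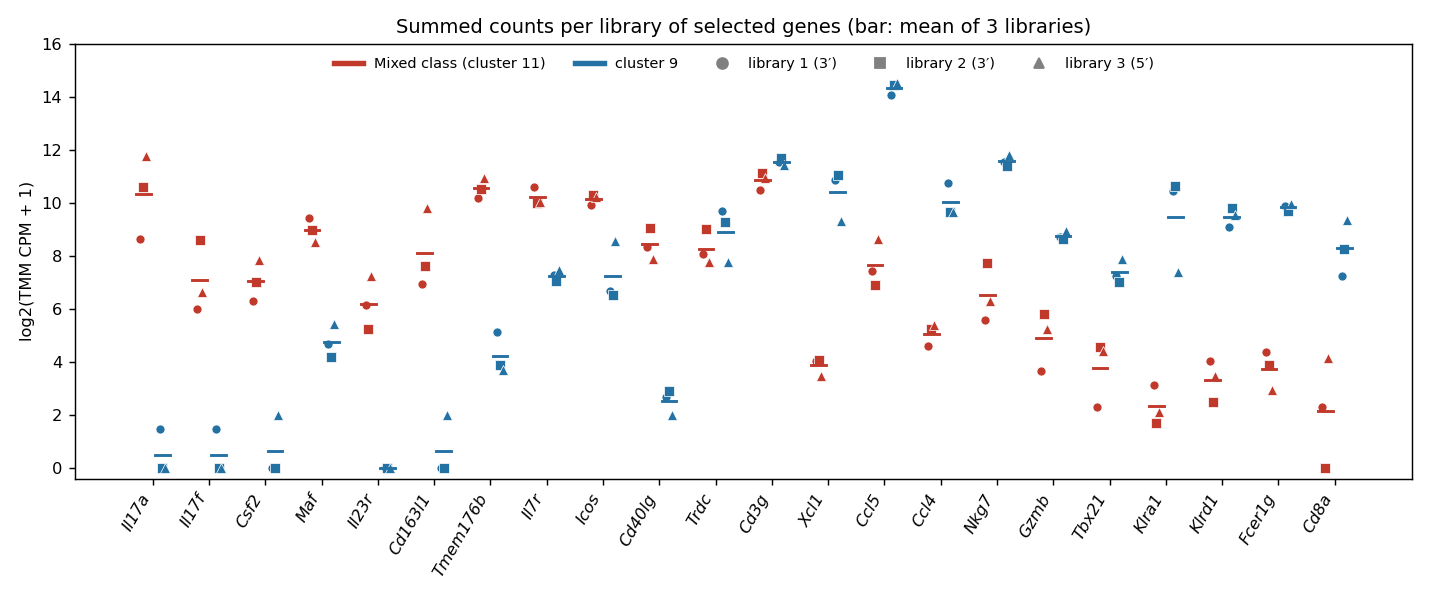
Levels of 22 genes as log2(TMM CPM + 1) in each library, for Mixed (red) and cluster 9 (blue), with circles, squares and triangles for libraries 1, 2 and 3 and a bar at the mean. Genes at the left, from Il17a to Cd40lg, are higher in red, with Il17a, Il17f, Csf2, Il23r and Cd163l1 at or near 0 in blue, Trdc and Cd3g lie close together, and chemokine, cytotoxic and killer lectin-like genes at the right are high in blue.

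The start regions of 3 of these genes are shown. They were chosen because 2 encode cytokines higher in Mixed than in cluster 9 and the other encodes a chemokine higher in cluster 9. That chemokine gene, Xcl1, was not limited to cluster 9. Each line is the 250 bases before the RefSeq start (build GRCm38.p6, the same assembly as mm10), 5′ to 3′ on the strand of the gene. Capitals mark AGGTCA, a half-site of nuclear receptors, or its reverse complement TGACCT in Il17a and Il17f, and GGTGTGA, the half-site of T-box factors, in Xcl1.
Il17a, chr1:20730655-20730904, plus strand: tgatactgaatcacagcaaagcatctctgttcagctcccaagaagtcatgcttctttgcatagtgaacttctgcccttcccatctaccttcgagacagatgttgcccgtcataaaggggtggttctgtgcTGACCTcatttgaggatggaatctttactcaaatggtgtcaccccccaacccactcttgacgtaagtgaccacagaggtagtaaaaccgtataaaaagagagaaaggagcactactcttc
Il17f, chr1:20784271-20784520, minus strand: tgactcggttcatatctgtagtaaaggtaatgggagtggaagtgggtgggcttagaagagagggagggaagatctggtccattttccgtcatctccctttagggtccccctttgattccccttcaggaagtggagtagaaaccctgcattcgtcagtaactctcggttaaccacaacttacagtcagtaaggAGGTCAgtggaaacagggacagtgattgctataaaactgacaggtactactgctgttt
Xcl1, chr1:164935523-164935772, minus strand: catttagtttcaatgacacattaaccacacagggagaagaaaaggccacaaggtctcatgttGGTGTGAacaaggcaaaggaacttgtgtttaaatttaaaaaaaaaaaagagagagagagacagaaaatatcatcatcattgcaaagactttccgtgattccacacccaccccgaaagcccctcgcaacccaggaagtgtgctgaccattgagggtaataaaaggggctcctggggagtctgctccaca

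Il17a holds 1 nuclear receptor half-site, on the minus strand from base 120 to base 115 before the start, and Il17f holds 1 on the plus strand from base 58 to base 53. The Xcl1 region holds 1 T-box half-site, from base 188 to base 182. Both motifs were searched on both strands. These letters are common: of 27025 RefSeq regions of this length, 13.8% hold AGGTCA and 3.31% hold GGTGTGA on either strand. Among genes called higher in Mixed the share with AGGTCA was 13.1%, and among genes called lower 9.01%. For GGTGTGA the shares were 1.88% and 4.35%. Over all 3906 tested genes with an entry they were 10.7% for AGGTCA and 2.84% for GGTGTGA. A match is a run of letters and not a measured binding site.

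Cytokines listed with the interleukin 17 program were higher in Mixed. Of 11 listed genes 6 were tested, and all 6 were called higher without overlap. Over all tested genes 9.85% were called higher and 19.3% did not overlap. Il17a, which names the comparison, Il17f and Csf2 passed the filter only through Mixed, so this count is no support. Il17f, the neighbour of Il17a on chromosome 1 and its close relative, stood at 62.8, 392.5 and 98.6 CPM in Mixed and at 1.79, 0 and 0 CPM in cluster 9. Its 216 UMIs against 1 give a ratio of 466 (95% exact counting interval 82.7 to 18470). Library 2 holds most of them, and without it the ratio is 73.2. Without library 1 it is at least 143, since no cluster 9 UMI remains.

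Csf2, which encodes the growth factor GM-CSF, stood at 78.5, 129 and 228 CPM in Mixed against 0, 0 and 2.99 CPM, or 143 UMIs against 1. The ratio was 308 (95% exact counting interval 54.4 to 12260), 142 without library 2 and at least 65.6 without library 3. Csf2 is not limited to Mixed, which held 53.96% of its UMIs over all cells, while the CD4 cluster 0 held 40.4%. Areg, the epidermal growth factor family ligand amphiregulin, stood at 86.4, 395 and 224 CPM against 8.95, 8.14 and 53.9 CPM. Of the 260 Areg UMIs in Mixed, 163 were in 28 cells with a UMI of Il1rl1, Il13 or Hes1, and none of these cells had an Il17a UMI. The 101 Mixed cells with an Il17a UMI held 47. Areg's place here is thus by list and not by shared cells. The log2 fold change of Areg, 3.88 ± 0.37, fell to 2.42 without library 2 and rose to 5.03 without library 3. Tnf was higher by 2.07 ± 0.29 (log2) and Ltb, which encodes lymphotoxin beta, by 0.82 ± 0.17. Il22 gave 3 UMIs in Mixed and 0 in cluster 9 and was not tested, like Il21, Lta and Il10, and Il9 had no count in the table.

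Factors that accompany interleukin 17 production, transcription factors and the kinase Blk, were mostly higher. Of 14 listed genes 11 were tested, 9 were called higher and 1 lower (9.85% and 8.6% of all tested genes). Their median log2 fold change was 1.56, against -0.00128 over all tested genes.

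Blk, a Src family kinase needed by gamma-delta T cells that make interleukin 17, gave 152 UMIs against 0 and was at least 109-fold higher, counted against a floor of 3 UMIs over the group. Library 3 carries most of this difference, with 364 CPM beside 90.3 and 50.5 CPM in libraries 1 and 2, and without it the bound is 38.8. Maf, whose product c-Maf drives the gamma-delta 17 fate, stood at 691, 512 and 374 CPM against 25.1, 17.1 and 41.9 CPM, a log2 fold change of 4.41 ± 0.26. Rora was higher by 1.90 ± 0.22, Hif1a by 1.56 ± 0.21 and Nfkbiz by 2.70 ± 0.27, which became 2.02 without library 2. Smaller differences were less firm: Ahr (0.90 ± 0.26) lost its call without library 3 (adjusted p = 0.15), Ikzf3 (0.80 ± 0.19) without library 2 (adjusted p = 0.083) and Zbtb16 (1.13 ± 0.34) without library 2 (adjusted p = 0.37) or library 3 (adjusted p = 0.054).

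Stat3, which carries the signal of the interleukin 23 receptor, went the other way. It stood at 145, 96.4 and 214 CPM in Mixed and at 297, 298 and 329 CPM in cluster 9, a log2 fold change of -1.10 ± 0.21 (edgeR adjusted p = 0.00018). Batf was not called (-0.16 ± 0.26). Sox13, a factor of gamma-delta 17 cells, had 42 UMIs against 0 but did not pass the filter on low counts.

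Of 20 listed genes for the surface and sensing machinery of interleukin 17 cells, 19 were tested and called higher in Mixed without overlap (9.85% of all tested genes were called higher and 19.3% did not overlap). Several, such as Il23r, Il1r1, Il17re, Cd163l1 and Ltb4r1, passed the filter only through Mixed, so this count is no support. Il23r had 78 UMIs against 0 (at least 56.0-fold, and 29.3-fold without library 3), Il1r1 had 68 against 0 (at least 48.8-fold, and 24.9-fold without library 2) and Il17re had 83 against 0 (at least 59.6-fold, and 31.5-fold without library 2).

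Cd163l1, a scavenger receptor of the WC1 family, stood at 122, 195 and 907 CPM in Mixed and at 0, 0 and 2.99 CPM in cluster 9. The 383 UMIs against 1 give a ratio of 825 (95% exact counting interval 147 to 32680), 485 without library 2 and at least 100.1 without library 3. Ltb4r1, the leukotriene B4 receptor, gave 378 UMIs against 1, and Serpinb1a, a protease inhibitor, gave 418 against 2. Ccr6, a homing receptor of interleukin 17 cells, gave 104 UMIs against 2.

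Genes with a level in both groups followed. Tmem176b stood at 1174, 1485 and 1961 CPM against 34.0, 13.8 and 11.97 CPM, a log2 fold change of 6.22 ± 0.29, and 6.90 without library 1. Il7r, the interleukin 7 receptor chain, stood at 1543, 1037 and 1043 CPM against 154, 131 and 177 CPM, a change of 2.97 ± 0.20. Il18r1 was higher by 2.61 ± 0.22, Cd44 by 1.33 ± 0.20 and Ramp1, part of the receptor for the neuropeptide CGRP, by 1.05 ± 0.19. Il2ra was higher by 3.29 ± 0.29, and by 2.69 without library 2. Ccr2 was higher by 0.61 ± 0.19 and lost its call without library 2 (adjusted p = 0.50).

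**Figure D3:**
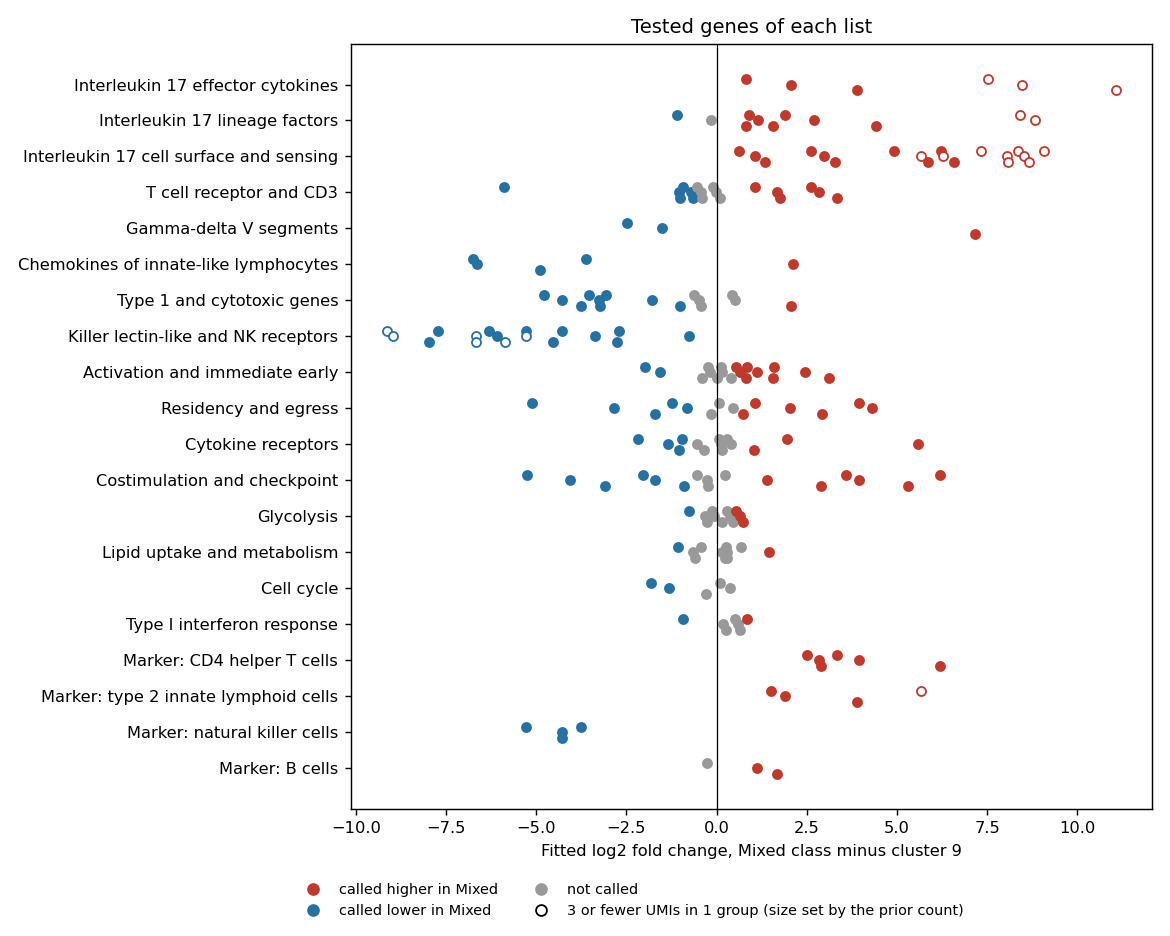
Fitted log2 fold changes (x axis, Mixed minus cluster 9) of the tested genes of 20 lists (rows), coloured by call, with open circles for genes with 3 or fewer UMIs in 1 group, whose fitted size is set by the prior count. The 3 interleukin 17 lists lie mostly to the right and the chemokine, cytotoxic and killer lectin-like lists mostly to the left, while glycolysis and lipid genes lie around 0.

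Chemokine genes were mostly lower in Mixed than in cluster 9. Of 10 listed genes 5 were tested, 4 were called lower and 1 higher, against 8.6% and 9.85% of all tested genes. Xcl1, which names the comparison, is 1 of the 4. Ccl5, which draws T cells and monocytes, stood at 173, 119 and 401 CPM in Mixed and at 17148, 22372 and 23511 CPM in cluster 9. Its log2 fold change was -6.64 ± 0.28 (edgeR adjusted p = 1.8e-16). Ccl5 is not particular to cluster 9, which held 14.6% of its UMIs, while the CD8 clusters 4 and 3 held 45.04% and 23.8%. Ccl4 was lower by -4.89 ± 0.27, with 23.6 to 40.8 CPM in Mixed and 812 to 1727 CPM in cluster 9. Ccl3 was lower by -3.61 ± 0.45, and by -2.87 without library 1. Without library 3, 2 UMIs of Ccl3 remain in Mixed and 120 in cluster 9, a ratio of 23.2 (95% exact counting interval 6.28 to 193.5). Cxcl10, a ligand of Cxcr3 induced by interferon, was higher in Mixed by 2.13 ± 0.30. That call was lost in cells without a UMI of Cd4 or Cd40lg. Ccl1 had 128 UMIs in cluster 9, nearly all in library 1 (227 CPM beside 0 and 2.99), and was not tested.

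Type 1 and cytotoxic genes were lower in Mixed in 9 of 15 tested genes of 20 listed, and higher in 1, against 8.6% and 9.85% of all tested genes. Nkg7, a granule membrane gene, stood at 47.1, 211 and 78.2 CPM in Mixed and at 2964, 2678 and 3639 CPM in cluster 9, a log2 fold change of -4.79 ± 0.29, and -5.71 without library 2. The pore protein gene Prf1 was lower by -4.30 ± 0.31 and the cathepsin gene Ctsw by -3.08 ± 0.22. Gzmb, which encodes granzyme B, was lower by -3.54 ± 0.27, and by -4.18 without library 2.

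Ifng, which encodes interferon gamma, stood at 11.8, 16.1 and 0 CPM in Mixed and at 109, 75.7 and 123 CPM in cluster 9. Its log2 fold change was -3.23 ± 0.43, and -2.58 without library 3. Without library 2, 3 UMIs of Ifng remain in Mixed and 102 in cluster 9, a ratio of 20.9 (95% exact counting interval 6.95 to 103). Both T-box factor genes were lower: Tbx21 by -3.26 ± 0.31 (-3.93 without library 2) and Eomes by -3.76 ± 0.54 (-2.78 without library 2, and 1 UMI against 116 without library 3). Stat4 (0.43 ± 0.22), Cxcr3 (0.52 ± 0.26) and Il18rap (-0.50 ± 0.24) were not called. Gzma had 78 UMIs in cluster 9, all in library 1, and was not tested.

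Killer lectin-like and natural killer receptor genes were read mainly in cluster 9. Of 26 listed genes 17 were tested and called lower in Mixed (8.6% of all tested genes were). Several of them, among them Klra6, Klra7 and Klra9, passed the filter only through cluster 9, so this count is no support. Klra1, a receptor of the Ly49 family for MHC class I, stood at 7.85, 2.30 and 3.40 CPM in Mixed and at 1402, 1583 and 168 CPM in cluster 9. Its log2 fold change was -7.97 ± 0.38. Without library 2, 3 UMIs of Klra1 remain in Mixed and 839 in cluster 9, a ratio of 172 (95% exact counting interval 58.6 to 835.5). Klra5 stood at 11.8, 0 and 3.40 CPM against 1119, 886 and 757 CPM. Klra6 and Klra7 had 0 UMIs in Mixed and 325 and 231 in cluster 9, at least 50.3-fold and 35.7-fold higher there, or 25.2-fold and 22.8-fold without library 2. The Klra genes are close copies of each other, so reads may have been split among them and single values are uncertain.

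The partner chain Klrd1 (CD94) was lower by -6.31 ± 0.33 (-5.62 without library 2) and Klrk1 (NKG2D) by -2.72 ± 0.23. Adaptor genes for such receptors were lower too: Fcer1g stood at 19.6, 13.8 and 6.797 CPM against 936, 838 and 990 CPM (-6.08 ± 0.29), Tyrobp was lower by -4.29 ± 0.29 and Hcst by -0.78 ± 0.17. Klrc1 was the exception to separation, since its Mixed value of 30.6 CPM in library 3 exceeded 4.07 CPM in cluster 9 of library 2. Both Ncr1 and Klrb1c, which help define natural killer cells, were sparse in cluster 9, at 26 and 7 UMIs, and neither was tested.

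By the rule for the largest changes, genes outside these lists also separated the groups. In Mixed, St6galnac1, a sialyltransferase gene, stood at 153, 112 and 44.2 CPM and was at 0 in cluster 9 (at least 72.6-fold, and 28.2-fold without library 2). Abi3bp had 69 UMIs against 0 and Pxdc1 182 against 1. In cluster 9, Cdh1, which encodes E-cadherin, stood at 100.2, 78.1 and 59.8 CPM and was at 0 in Mixed (at least 26.6-fold, and 15.6-fold without library 2). Hhex, a homeobox factor gene, stood at 66.2, 67.5 and 65.8 CPM and Dapk2, a kinase gene, at 59.1, 62.7 and 41.9 CPM, and both were at 0 in Mixed. Cd200r4 had 332 UMIs in cluster 9 and 1 in Mixed.

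T cell receptor and CD3 genes differed in part. Of 18 tested genes 6 were called higher in Mixed, 6 lower (9.85% and 8.6% of all tested genes) and 6 not called. Trac and Trbc2, constant parts of the alpha and beta chains, were not called (-0.10 ± 0.19 and 0.10 ± 0.17). Cd3d was lower by -1.002 ± 0.17. Cd3g was lower by -0.70 ± 0.18, a call lost without library 1 (adjusted p = 0.15) and without library 3 (adjusted p = 0.051). Cd247 was higher by 1.05 ± 0.24 and lost its call without library 3 (adjusted p = 0.25).

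Coreceptors went apart. Cd8a stood at 3.93, 0 and 16.99 CPM in Mixed and at 152, 308 and 658 CPM in cluster 9, a log2 fold change of -5.89 ± 0.37 that became -5.22 without library 2, while without library 3 the counts were 1 UMI against 464. Cd4 stood at 122, 110 and 109 CPM in Mixed and at 14.3, 1.63 and 32.9 CPM in cluster 9, a change of 3.34 ± 0.41 that became 2.38 without library 2 and 4.26 without library 3. Cd28 was higher in Mixed by 2.63 ± 0.34 (2.00 without library 2 and 3.67 without library 3). Lat was higher by 1.68 ± 0.19.

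The summed level of the V segments of the gamma and delta chains was highest in the 5′ library in both groups. It was 263, 246 and 3004 CPM in Mixed and 396, 347 and 2364 CPM in cluster 9. Trdv4 stood at 39.3, 110 and 1869 CPM in Mixed and at 0, 0 and 15.0 CPM in cluster 9, a log2 fold change of 7.17 ± 0.39. Without library 3, 58 UMIs of Trdv4 remain in Mixed and 0 in cluster 9, at least 50.1-fold. Tcrg-V6 was not tested. It gave 176 UMIs in Mixed, 168 of them in library 3, and 0 in cluster 9, at least 126-fold higher, and 6.91-fold without library 3. It was read in 32 of 69 Mixed cells of library 3.

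Other segments were divided between the groups, and several were not tested. Tcrg-V5 and Trdv5 gave 31 and 38 UMIs in Mixed, all in library 3, and 0 and 5 in cluster 9. Trdv2-2 gave 9 in Mixed and 11 in cluster 9, Tcrg-V4 21 and 85, and Tcrg-V7 1 and 10. Trdv1, not tested either, gave 2 UMIs in Mixed and 277 in cluster 9. The latter were 4, 145 and 128 in libraries 1, 2 and 3. Tcrg-V1 was lower in Mixed by -2.48 ± 0.39, a call lost without library 3 (-0.82, adjusted p = 0.17). Trgv2 was lower by -1.51 ± 0.24. The constant genes Tcrg-C1 and Tcrg-C2 split, at 1.77 ± 0.24 and -1.05 ± 0.24. The gamma genes resemble each other, so reads may have been split among them.

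At the level of single cells, 62 of 291 Mixed cells had a Trdc UMI, 167 had a Trac UMI and 21 had both. In cluster 9 the numbers were 198, 305 and 64 of 478. The following subsets were chosen after values had been seen and are descriptions. Of Mixed cells, 81 had a UMI of Trdc, Trdv4 or Tcrg-V6, 20 in library 1, 21 in library 2 and 40 in library 3, where V segments were mostly read. Of these, 43 had an Il17a UMI (53.1%), holding 1063 of its 1811 UMIs, 60 had a Cd163l1 UMI (74.1%) and 4 a Cd40lg UMI (4.94%).

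Of the other 210 Mixed cells, 58 had an Il17a UMI (27.6%), 9 a Cd163l1 UMI (4.29%) and 122 a Cd40lg UMI (58.1%). Since the subsets draw differently on the libraries, the Il17a shares were also taken within each: 30.0% against 16.5% in library 1, 38.1% against 31.4% in library 2 and 72.5% against 44.8% in library 3. Of the 27 cells with an Il17f UMI, 26 were among these 210 (6, 13 and 7 in libraries 1, 2 and 3), and the other was in library 3. The difference between Il17a and Il17f was not tested. Il17a was read in none of 28 Mixed cells with a UMI of Il1rl1, Il13 or Hes1, genes of type 2 innate lymphoid cells, which allows a share of cells with a UMI of up to 10.7%. It was also read in none of 27 Mixed cells with neither a Cd3e nor a Cd3g UMI, which allows up to 11.1%. These limits pool the libraries, cover counting error only and say nothing of cells that express the gene below detection. In cluster 9, 2 of 478 cells lacked both CD3 genes.

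Marker lists of helper T cells and type 2 innate lymphoid cells moved with Mixed. All 6 tested CD4 helper T cell markers of 7 were called higher (9.85% of all tested genes were). The summed level of the 7 was 1842 to 2508 CPM in Mixed against 123 to 655 CPM in cluster 9, with none at 0 in either group. Icos gave the largest part of the Mixed sum and is not limited to helper cells here. It was read in 56 of the 81 Mixed cells with a UMI of Trdc, Trdv4 or Tcrg-V6 (69.1%). Cd40lg, the ligand by which helper T cells license B cells and dendritic cells, stood at 326, 539 and 238 CPM against 5.37, 6.51 and 2.99 CPM (6.19 ± 0.29). In cells without a UMI of Cd4 or Cd40lg, a comparison added after seeing the data, Maf was higher in Mixed by 4.58 (fitted log2). Il17a was called higher there too, a direction set by the filter and no support.

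Type 2 innate lymphoid cell markers were called higher in 4 of 4 tested genes of 10 (9.85% of all tested genes were). Their summed level was 928 to 1308 CPM against 188 to 287 CPM, with Il5, Il17rb and Hes1 at 0 in cluster 9. Rora and Areg, both also in lists above, gave most of the Mixed sum, with 531 and 260 UMIs. The other members had from 6 (Il17rb) to 140 (Gata3) UMIs in Mixed. The sum is therefore not specific to type 2 innate lymphoid cells. Without cells that had a UMI of Il1rl1, Il13 or Hes1, Gata3 fell from 1.499 to 0.28 and was no longer called (edgeR adjusted p = 0.60). Areg fell from 3.88 to 2.69. The call of Il17a remained, again with its direction set by the filter. B cell markers summed to 321 to 1206 CPM in Mixed and 129 to 682 CPM in cluster 9, with Ms4a1 at 0 in Mixed. Of 3 tested B cell markers 2 were called higher in Mixed, H2-Aa by 1.67 ± 0.22 and Cd74 by 1.12 ± 0.25. The Cd74 change was 1.715 without library 1, and its call was lost without library 3 (adjusted p = 0.070). Cd79b, not tested, had 33 UMIs against 4. The part of these markers in the results was not tested. Schwann cell and fibroblast markers were at 0 in 8 of 10 genes in Mixed and in 7 of 10 in cluster 9. The tested member, Mbp, was called higher in Mixed (0.998 ± 0.26), a call lost without library 2 (adjusted p = 0.087), with 64.6 to 117.8 CPM against 43.1 to 50.1 CPM. Macrophage markers summed to 156 to 334 CPM and 114 to 213 CPM. Natural killer cell markers moved with cluster 9, at 820 to 1325 CPM against 25.3 to 74.8 CPM in Mixed, and all 4 tested were called lower (8.6% of all tested genes were).

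After every cell was thinned to 1000 UMIs, to set aside depth, Il17a was read in 26.7 ± 14.9% of Mixed cells (SD, n = 3). It was read in 0 of 475 cluster 9 cells, which allows up to 0.632%, and in 0 of 1904 B cells, which should lack it and allow up to 0.158%. These limits are for cells with a UMI at that depth, pooled over libraries, and cover counting error only. Unthinned, the share in Mixed was 37.5 ± 21.3%, and 1 of 478 cluster 9 cells and 5 B cells had an Il17a UMI. Xcl1 was read in 31.6 ± 13.9% of cluster 9 cells, 0.276 ± 0.477% of Mixed cells and 0.602 ± 0.538% of B cells. Unthinned, these shares were 54.3 ± 16.9%, 3.34 ± 1.49% and 2.26 ± 0.986%. Thinning left out 2 Mixed cells, 3 cluster 9 cells and 46 B cells below 1000 UMIs.

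Tmem176b was read in 67.3 ± 10.4% of thinned Mixed cells and 2.68 ± 1.41% of cluster 9 cells, and Cd40lg in 21.6 ± 6.83% and 0.965 ± 0.423%. Ccl5 was read in 89.0 ± 1.39% of cluster 9 cells. Its share in Mixed, 19.1 ± 12.48%, was close to that in B cells, 17.9 ± 11.5%. The source of the Ccl5 reads in Mixed was not tested. With 3 pairs an exact two-sided test of signs cannot go below p = 0.25, so these shares carry no test.

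**Figure D4:**
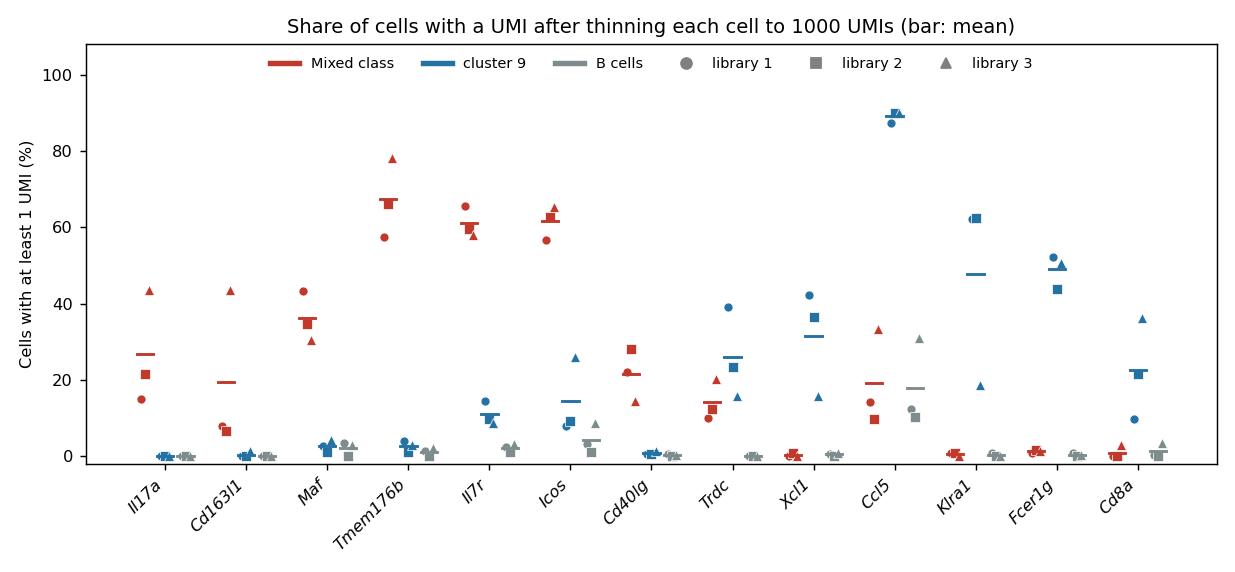
Percent of cells with at least 1 UMI of each of 13 genes (y axis) after each cell was thinned to 1000 UMIs, for Mixed (red), cluster 9 (blue) and B cells (grey), with 1 point per library and a bar at the mean. Il17a lies above 0 in Mixed alone, Xcl1 and Klra1 in cluster 9 alone to a visible degree, and Ccl5 in Mixed overlaps the B cells.

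Genes of circulation and residency were divided between the groups, with 6 of 14 tested genes called higher in Mixed and 5 lower (9.85% and 8.6% of all tested genes). The same background applies to the lists that follow. S1pr1, the receptor by which lymphocytes leave tissue, stood at 298, 78.0 and 109 CPM in Mixed and at 5.37, 5.70 and 11.97 CPM in cluster 9 (4.31 ± 0.37, and 3.52 without library 1). Its activator Klf2 was higher by 2.92 ± 0.24 and the integrin gene Itgb7 by 3.96 ± 0.24. The residency integrins Itga1 (CD49a) and Itgae (CD103) were lower, by -5.13 ± 0.31 and by -2.85 ± 0.28 (-3.91 without library 3).

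Costimulation and checkpoint genes split evenly, with 6 of 16 tested genes higher and 6 lower. Icos stood at 974, 1251 and 1206 CPM in Mixed and at 102, 91.1 and 380 CPM in cluster 9 (2.89 ± 0.26, and 3.55 without library 3). Tnfrsf25, the receptor DR3, was higher by 5.30 ± 0.49 (4.17 without library 2, and 91 UMIs against 1 without library 3). The inhibitory receptor gene Lag3 was lower by -5.27 ± 0.32 (3 UMIs against 543 without library 3), Tnfsf10 (TRAIL) by -4.06 ± 0.32 and Cd27 by -2.04 ± 0.23.

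Among cytokine receptors 3 of 14 tested genes were higher in Mixed and 4 lower. Ifngr2, the signalling chain of the interferon gamma receptor, had 109 UMIs against 4 (5.58 ± 0.45). Il2rb, the chain shared by the receptors for interleukins 2 and 15, was lower by -2.17 ± 0.20. Of the 18 tested activation genes 9 were higher and 2 lower. Nfkbia, an inhibitor of NF-kB that NF-kB itself induces, stood at 821, 1781 and 1196 CPM against 301, 205 and 177 CPM (2.46 ± 0.24). The orphan receptor gene Nr4a2 was lower by -1.99 ± 0.20.

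**Figure D5:**
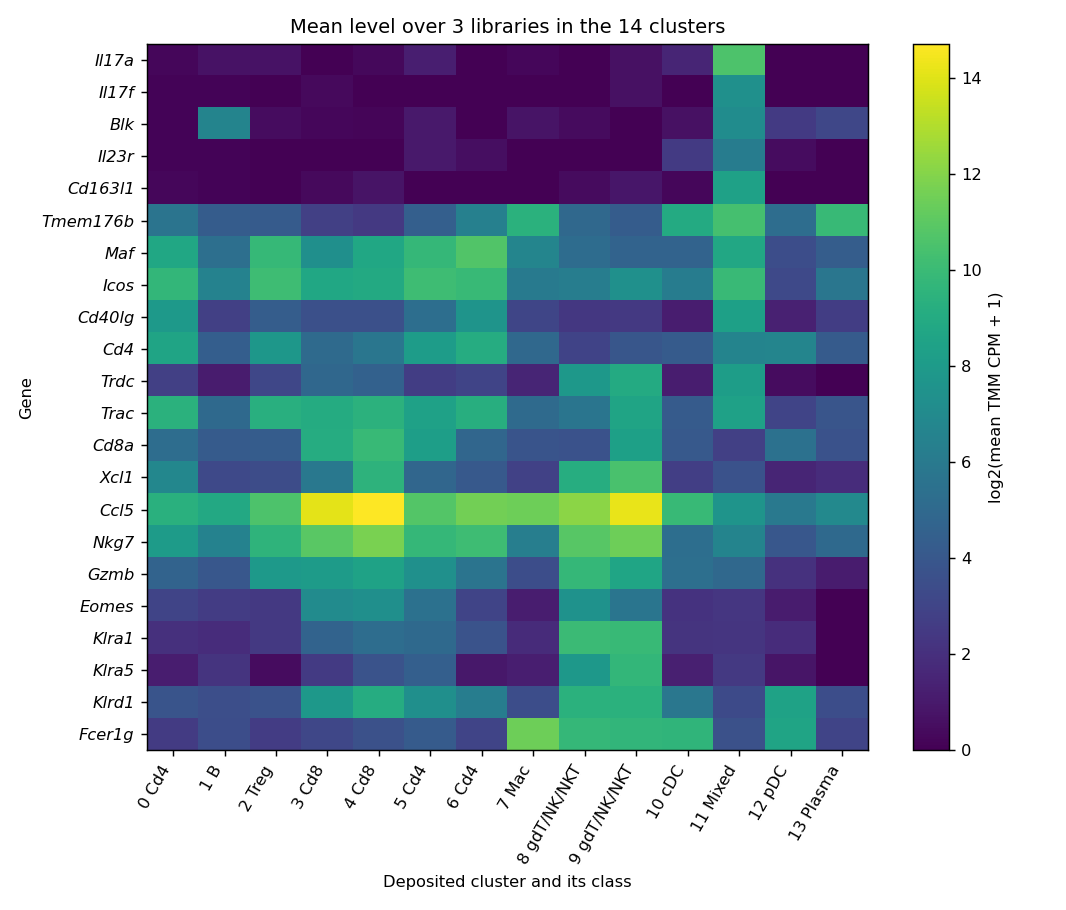
Mean level over 3 libraries, as log2(mean TMM CPM + 1), of 22 genes (rows) in the 14 deposited clusters (columns), each with its class name. Il17a is bright in cluster 11 alone among the 14, while Xcl1, Nkg7 and Klrd1 are also bright in clusters 4, 8 and 9, and Maf and Icos also in CD4 and Treg clusters.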

How the data were processed

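The authors deposited raw UMI counts of 17168 genes in 11640 cells, with a cluster, class and mitochondrial percent per cell. The tools and build listed in the submitters' processing notes are Seurat 4.0, Cell Ranger 5.0.1 and mm10, with no role given. The deposited totals equal the summed counts in all 11640 cells, and no deposited cell was removed. Counts were summed per library and group (6 sums) and tested with edgeR 4.0.16 (R 4.3.3): quasi-likelihood F-test, TMM scaling, filterByExpr, library as a block, Benjamini-Hochberg adjustment, called under 0.05. Both groups come from the same library, and their deviations correlated at 0.597, 0.617 and 0.767 over 4906 genes. Genes and lists were chosen with earlier results of these data known. Named genes are Il17a, Xcl1 and Trdc, the 12 called genes of largest change per direction with at least 50 CPM in the higher group and all libraries on one side, and the called members of the lists.

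A gene at 0 in a group was set against a floor of 3 UMIs over that group, and ratios with 1 to 3 UMIs have exact 95% intervals. Both cover counting error only. Scrublet (scanpy 1.11.5) called 89, 2 and 1 cells doublets in libraries 1, 2 and 3, and 1 in each compared group. On simulated data for this comparison (4735 genes in the fit), 75% of 2-fold and 97.8% of 4-fold changes were called, and 0.132% of unchanged genes. The simulation used the dispersion fitted here, changed few genes and gave both groups of a library the same library effect. Its rates may therefore not carry over to these data. DESeq2 1.42.0 and limma 3.58.1 were used as alternatives, 13 planned and 2 added after seeing the data. Some genes that were tested are not reported here.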

Additional observations from a re-analysis of the deposited data

How the results depend on the processing

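The 905 called genes (483 higher and 422 lower in Mixed) ranged from 653 to 939 when 1 library was left out (353 to 524 higher, 300 to 415 lower). DESeq2 called 440 (239 higher, 201 lower). With no replicate block, so that the pairing by library was ignored, 308 were called (168 higher, 140 lower), all of them among the 905, and 50 of 137 called named genes lost their call. With equal cells and depth 256 of 1551 tested genes were called (134 higher, 122 lower). With cells that had a Trdc UMI only, 407 of 2323 were called (208 higher, 199 lower), and without cells that had a UMI of Cd4 or Cd40lg, a comparison added after seeing the data, 587 of 3465 (305 higher, 282 lower). These last 3 tested fewer genes. RLE scaling, limma-voom, both other filters on low counts, the fit over all clusters, leaving out called doublets, and leaving out cells with Il1rl1, Il13 or Hes1 (also added after seeing the data) gave counts within 1.5 times of 905. Among them, no filter called 1251 of 13746 tested genes, and the fit over all clusters called 1222 of 10545. These shared 833 and 761 calls with the main fit, so similar counts do not mean the same genes or share.

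Of the 137 called named genes, 86 kept their call and direction in every alternative in which they were tested, and 112 without each library in turn. Both counts include genes near 0 in 1 group, such as Il17a, whose direction the filter set. Trdc alone turned its direction, to 0.44 without cells that had a UMI of Cd4 or Cd40lg. The cause was not tested. Depth limits genes such as Il22, with 3 UMIs in all. Of 84 alternative values for shares of cells, 22 moved by more than 1 SD over libraries. The caller of doublets marked few cells in libraries 2 and 3, so doublets there may remain.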

Other observations

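Over all tested genes 9.85% were called higher in Mixed and 8.6% lower, 18.4% in all. Of 12 tested glycolysis genes 3 were called higher in Mixed and 1 lower, with a median log2 fold change of 0.22. Aldoa was higher by 0.64 ± 0.18, Eno1 by 0.72 ± 0.19 and Ldha by 0.53 ± 0.18, and each of these calls was lost without library 2 (that of Ldha also without library 3). Tpi1 was lower by -0.78 ± 0.25, a call lost without library 1 and without library 2. Of 11 tested lipid genes 1 was higher and 1 lower: Plin2, which coats lipid droplets, by 1.44 ± 0.38, a call lost without library 3, and the desaturase gene Scd2 by -1.07 ± 0.28. That share is near the one over all tested genes and is no result about lipid genes.

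Cell cycle genes were sparse, with 5 of 15 tested, and 2 were lower in Mixed. Mcm6 was lower by -1.31 ± 0.33, a call lost without library 1, and Stmn1 by -1.81 ± 0.47, likewise lost without library 1 (-0.98) and -2.71 without library 3. Of 7 tested genes of the type I interferon response, Bst2 was higher by 0.83 ± 0.19 and Isg15 lower by -0.95 ± 0.22, a call lost without library 2. The other 5 were not called.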
